A study of Mus musculus with 9 samples.

Results

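The genes described here are 33 markers and regulators of primitive, visceral and definitive endoderm, chosen by name from the 55471 gene IDs of the count table and followed across 9 RNA-seq libraries of mouse embryoid bodies (EBs). EBs are the spheres that embryonic stem (ES) cells form in hanging drops and in which they begin to differentiate. By role the genes were 8 transcription factors, 4 genes of endocytosis, 11 secreted or transport proteins and 10 surface, signalling and matrix genes. All 33 symbols were matched to an Ensembl ID.

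Primitive endoderm is the layer of the mouse blastocyst that separates from the epiblast under FGF signalling, with GATA6 as a central factor and NANOG as its counterpart in the epiblast. It gives rise to visceral endoderm, an absorptive and secretory epithelium, and to parietal endoderm, which makes a thick basement membrane. Visceral endoderm takes up maternal proteins through the receptors megalin and cubilin, and it secretes apolipoproteins, alpha-fetoprotein, transthyretin and transferrin much as the liver does later. EBs typically form such a layer on their surface. Definitive endoderm, the source of the gut, arises separately at gastrulation and shares several of these factors.

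WT EBs came from the parental ES cell line, named E14 in the labels. The other EBs were Tnfaip2-/- and came from 1 CRISPR-Cas9 clone of that line with a premature stop codon in exon 2 of *Tnfaip2*. These KO EBs were sequenced without treatment (KO) or after culture with 2 lipids, palmitic acid at 8 μM and palmitoyl-L-carnitine also at 8 μM (together PA/PC, the KO_PAPC group). Each group had 3 libraries, which the study describes as biological replicates. All EBs spent 3 days in hanging drops of 1000 cells and 3 days on gelatin in MEF medium to differentiate, and no WT EBs with PA/PC were included. Effects of the knockout cannot be told apart from those of the single clone. The study's methods name MEF medium with PA/PC already for the hanging drops of the treated EBs, and ES cell medium for those of the others, so a difference in medium at EB formation and PA/PC cannot be told apart.

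Depth was even, at 27362913 to 28914312 counts per library. CPM values are counts scaled to a common library total, and values are given as mean ± SD over 3 libraries. The 33 genes took 0.229% to 0.239% of the counts in WT, 0.155% to 0.162% in KO and 0.0986% to 0.104% in KO_PAPC libraries. *Tnfaip2* held 16, 6 and 10 reads in the WT libraries, 5, 6 and 8 in KO and 25, 14 and 16 in KO_PAPC. It was not tested in KO versus WT for its low counts, and a frameshift need not lower the transcript, so these reads do not check the labels. *Tnfaip2* was called higher in KO_PAPC than in KO (log2 fold change 1.72 ± 0.36, adjusted p = 5.49e-05) and than in WT (0.95 ± 0.34, adjusted p = 0.0164), the latter not in DESeq2 (adjusted p = 0.106) or without KO_PAPC replicate 1 (adjusted p = 0.131) or WT replicate 2 (adjusted p = 0.101). *Alb*, a defining gene of liver, held 0 to 2 reads in every library, and *Cer1*, a marker of anterior visceral and definitive endoderm, held 1 to 8. The labelled theme of primitive and visceral endoderm was thus checked against its own defining genes, of which *Gata6*, *Gata4*, *Sox7*, *Cubn*, *Amn* and *Dab2* were above 10 CPM in each WT library. Other markers of the list lay below 10 CPM in WT. The means were 9.24 CPM for *Ttr*, 8.45 for *Hnf4a*, 6.87 for *Foxa2*, 4.75 for *Afp*, 3.06 for *Foxa1* and 2.38 for *Apoa1*. Values are of whole EBs, so fewer cells of a type and less RNA per cell cannot be told apart.

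Promoter sequences are shown for the genes at the ends of the range of KO versus WT: *Afp* and *Apob*, the 2 largest rises, and *Ihh* and *Aqp8*, the 2 largest falls, among the members with 1 RefSeq start that lay within 50 bases of the start in the gene annotation. RefSeq promoter entries (GRCm38.p6) matched 24 of the 33 genes, too few for a check of the whole list. The *Afp* and *Ihh* sequences end just before the RefSeq start. In *Apob* (221 bases) and *Aqp8* (247 bases) the start in the gene annotation lies upstream of the RefSeq start, and the sequence ends just before the former. Capitals mark a FOXA core (TGTTTAC or TGTTTGC on either strand) and a TATA box (TATAAA on the gene's strand). The *Afp* promoter lies on the plus strand at chr5:90490464-90490713.
Afp: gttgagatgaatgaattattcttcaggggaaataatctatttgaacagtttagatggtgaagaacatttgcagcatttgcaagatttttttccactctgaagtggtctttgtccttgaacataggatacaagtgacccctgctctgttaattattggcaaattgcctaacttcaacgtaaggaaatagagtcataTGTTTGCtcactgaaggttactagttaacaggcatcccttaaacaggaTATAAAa
The *Apob* promoter lies on the plus strand at chr12:7977427-7977647.
Apob: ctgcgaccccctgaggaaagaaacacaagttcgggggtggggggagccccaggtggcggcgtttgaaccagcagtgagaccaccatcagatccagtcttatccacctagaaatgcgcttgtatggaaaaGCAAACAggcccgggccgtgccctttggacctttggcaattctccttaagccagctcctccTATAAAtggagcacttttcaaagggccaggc
The *Ihh* promoter lies on the minus strand at chr1:74951673-74951922.
Ihh: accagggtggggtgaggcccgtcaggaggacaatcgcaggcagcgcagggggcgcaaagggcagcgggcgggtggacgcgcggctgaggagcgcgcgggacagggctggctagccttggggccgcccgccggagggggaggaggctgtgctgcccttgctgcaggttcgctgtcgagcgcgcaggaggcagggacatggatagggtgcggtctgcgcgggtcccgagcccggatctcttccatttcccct
The *Aqp8* promoter lies on the plus strand at chr7:123462044-123462290.
Aqp8: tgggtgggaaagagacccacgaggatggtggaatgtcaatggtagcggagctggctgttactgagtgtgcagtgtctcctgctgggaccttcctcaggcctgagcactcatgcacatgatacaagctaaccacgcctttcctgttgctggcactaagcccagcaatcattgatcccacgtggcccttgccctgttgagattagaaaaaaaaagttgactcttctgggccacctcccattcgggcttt

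The promoters of both genes that were higher in KO held a FOXA core and a TATA box. In *Afp* the core lay at -55 to -49 from the RefSeq start and the TATA box at -7 to -2. The start of *Afp* in the gene annotation, 90490737, lies downstream of the RefSeq start, so both motifs lie further upstream of it. In *Apob* they lay at -121 to -115 and at -60 to -55, also counted from the RefSeq start, which lies beyond the end of the printed sequence. Both lie nearer to the start of *Apob* in the gene annotation. Neither motif was found in these windows of *Ihh* and *Aqp8*, nor was a GATA core (AGATAA or TGATAA or AGATAG or TGATAG), a SOX17 core (ACAATGG or ACAATAG) or an HNF4A core (CAAAGTC) found on either strand of any of the 4. Of 32851 promoters, each read over the 250 bases before its start, 7.29% held the FOXA core, 7.59% the TATA box, 26.5% the GATA core, 5.03% the SOX17 core and 3.84% the HNF4A core. The GC content was 36.0% in *Afp*, 55.7% in *Apob*, 72.0% in *Ihh* and 53.0% in *Aqp8*, against a median of 52.4% over all promoters, and *Ihh* held 24 CpG dinucleotides against a median of 6. These matches describe 4 windows and are not evidence of binding.

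The quasi-likelihood test of edgeR was run over the whole table, and a gene was called at a Benjamini-Hochberg adjusted p under 0.05. Errors of log2 fold changes are SE. Of the 33 genes, 32 were tested in each contrast. *Apoc2* held 0 reads in every library. Most of its exon sequence (79.5%) overlaps the predicted gene *Gm44805*, also at 0. Reads shared by overlapping genes were not counted, so these zeros bear only on the part of *Apoc2* outside that overlap. KO EBs had 10 of the endoderm genes higher than WT and 19 lower, with a median log2 fold change of -0.61, against -0.0059 over all tested genes. Over all tested genes 36.8% were called higher and 37.1% lower, so a call alone sets no gene apart, and sizes are given with it. In KO_PAPC versus KO, 1 endoderm gene was higher and 27 were lower (39.6% and 42.2% of all tested genes), with a median of -2.39 against -0.017 over all genes. In KO_PAPC versus WT, 2 were higher and 29 lower (34.2% and 36.4% of all tested genes), with a median of -2.08. The contrasts share libraries in pairs, so each is given with its own values.

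Falls of at least 2-fold were seen in 11 of the 32 genes from WT to KO, 22 from KO to KO_PAPC and 24 from WT to KO_PAPC. Among all tested genes they were seen in 6.90%, 18.4% and 11.4%. At a tested minimum fold change of 2, edgeR called 2 endoderm genes higher and 10 lower in KO than in WT (5.36% and 3.79% of all tested genes). In KO_PAPC versus KO that test called 1 higher and 20 lower (6.26% and 14.4% of all), and in KO_PAPC versus WT 0 higher and 22 lower (0.961% and 7.05% of all). Libraries of KO and WT did not overlap for 10 genes that were higher and 19 that were lower in KO, against 37.3% and 38.0% of all tested genes. From KO to KO_PAPC this held for 1 gene upward and 29 downward (31.4% and 50.7% of all), and from WT to KO_PAPC for 1 upward and 30 downward (22.5% and 50.6% of all). In order of mean level, 19 genes fell from WT to KO to KO_PAPC, and 11 had their highest mean in KO and their lowest in KO_PAPC. *Fst* was lowest in KO and highest in KO_PAPC, and *Cxcr4* had its highest mean in KO_PAPC and its lowest in WT. Not every step of these orders passed the test, as given for each gene below.

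**Figure D1:**
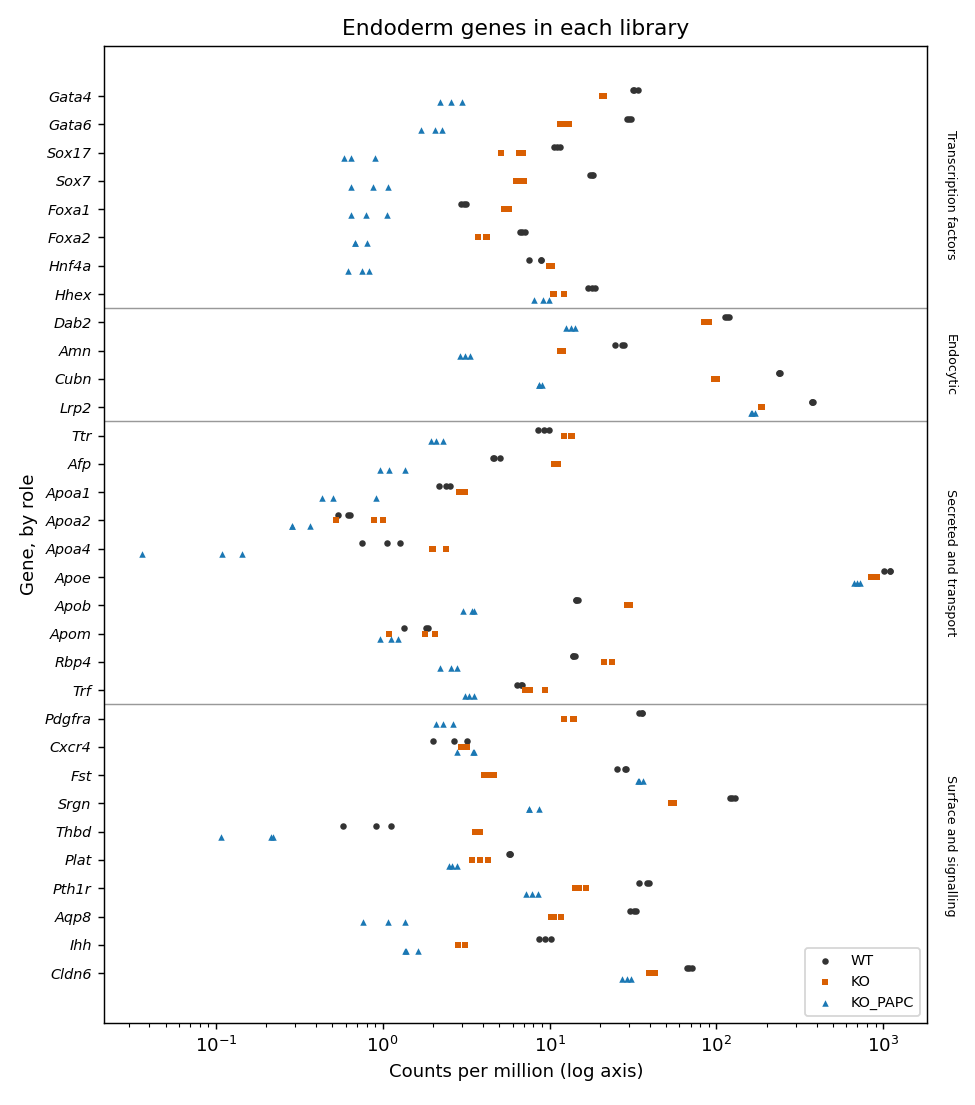
CPM of each endoderm gene on a log axis, with 1 point per library (circles WT, squares KO, triangles KO_PAPC) and genes grouped by role. The KO_PAPC libraries lie lowest for most genes. The KO libraries lie above WT for *Foxa1*, *Hnf4a*, *Thbd* and most secreted proteins and below WT for most other genes. *Apoc2*, at 0 in all libraries, is not drawn.

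Of the 8 transcription factors, 6 were lower in KO than in WT and 2 were higher, against 37.1% and 36.8% of all tested genes. GATA4 and GATA6 are zinc-finger factors that drive ES cells towards primitive endoderm when expressed. *Gata6* (ENSMUSG00000005836, chromosome 18, 11052064 to 11085635) had 820, 861 and 828 reads in the WT libraries, 331, 367 and 348 in the KO libraries and 47, 62 and 57 in the KO_PAPC libraries. The groups did not overlap, and each step was downward: 30.0 ± 1.01 CPM in WT EBs, 12.2 ± 0.776 in KO EBs and 2.00 ± 0.290 in KO_PAPC EBs. The log2 fold change of KO over WT was -1.29 ± 0.057 (adjusted p = 3.72e-20) and that of KO_PAPC over KO -2.44 ± 0.11 (adjusted p = 1.92e-21). *Gata4* (ENSMUSG00000021944, chromosome 14, 63198922 to 63271692) had 904, 882 and 937 reads in the WT libraries, 591, 595 and 612 in the KO libraries and 61, 82 and 72 in the KO_PAPC libraries. KO libraries thus kept 64.7% of the WT level of *Gata4*, against 40.9% for *Gata6*. In KO_PAPC EBs the shares were 7.97% and 6.68%.

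SOX17 and SOX7 are related HMG-box factors of extraembryonic endoderm, and SOX17 also acts in definitive endoderm. *Sox7* lay at 17.8 ± 0.434 CPM in WT EBs, 6.61 ± 0.406 in KO EBs and 0.868 ± 0.217 in KO_PAPC EBs, with log2 fold changes of -1.43 ± 0.070 and -2.76 ± 0.15 for the 2 steps. *Sox17* had 303, 320 and 306 reads in the WT libraries, 197, 185 and 147 in the KO libraries and 25, 16 and 18 in the KO_PAPC libraries. No library of one group lay within the range of another. *Sox17* changed by -0.84 ± 0.088 (log2) from WT to KO and by -2.95 ± 0.18 from KO to KO_PAPC. Antisense *Gm37587* covers 16.9% of the *Sox17* exons and held 0 or 1 read per library. Reads shared by overlapping genes were not counted, so the counts of both genes bear only on their parts outside that overlap.

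FOXA1, FOXA2 and HNF4A are liver-enriched factors that activate genes of secreted proteins in visceral endoderm and liver, and HHEX is a homeobox factor of anterior visceral endoderm and of definitive endoderm. The FOXA genes went apart in KO. *Foxa1* (ENSMUSG00000035451, chromosome 12, 57540628 to 57546916) had 89, 82 and 85 reads in the WT libraries, 164, 150 and 164 in the KO libraries and 22, 29 and 18 in the KO_PAPC libraries. It rose in KO with a log2 fold change of 0.87 ± 0.11 (adjusted p = 9.06e-09), while *Foxa2* fell with one of -0.76 ± 0.097 (adjusted p = 1.79e-08). *Hnf4a* had 251, 211 and 246 reads in the WT libraries, 297, 279 and 289 in the KO libraries and 21, 17 and 23 in the KO_PAPC libraries. Its rise in KO was small, 0.26 ± 0.078 (adjusted p = 0.00331), and missed the threshold in DESeq2 (adjusted p = 0.0506). All 3 fell in KO_PAPC versus KO, with log2 fold changes of -2.58 ± 0.16 for *Foxa1*, -2.31 ± 0.17 for *Foxa2* and -3.61 ± 0.14 for *Hnf4a*, which was the largest fall of the 8 factors in that contrast.

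*Hhex* behaved differently from the other factors under PA/PC. It had 484, 500 and 515 reads in the WT libraries, 305, 292 and 355 in the KO libraries and 275, 220 and 254 in the KO_PAPC libraries. It fell in KO versus WT (-0.68 ± 0.067, adjusted p = 4.34e-11), whereas its difference between KO_PAPC and KO was -0.14 ± 0.083 (adjusted p = 0.124). That difference was called when library totals were used as size factors (-0.30, adjusted p = 0.00115) and without KO_PAPC replicate 1 (-0.20, adjusted p = 0.0312). *Hhex* held 50.4% of its WT level in KO_PAPC EBs. Among the other 7 factors the share ran from 4.86% for *Sox7* to 27.3% for *Foxa1*. The difference between *Hhex* and these factors was not tested.

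The 4 genes of endocytosis were all lower in KO than in WT, and 3 of them fell again in KO_PAPC EBs. Megalin (LRP2) and cubilin (CUBN) are giant receptors of the apical membrane. Amnionless (AMN) carries cubilin to the surface, and DAB2 is the adaptor that links megalin to clathrin. *Cubn* (ENSMUSG00000026726, chromosome 2, 13276338 to 13491813) had 6755, 6670 and 6541 reads in the WT libraries, 2773, 2840 and 2830 in the KO libraries and 239, 238 and 250 in the KO_PAPC libraries. The groups lay far apart, with a log2 fold change of -1.27 ± 0.027 from WT to KO (adjusted p = 2.59e-29) and of -3.33 ± 0.049 from KO to KO_PAPC (adjusted p = 1.66e-36). *Amn* fell with log2 fold changes of -1.18 ± 0.061 and -1.74 ± 0.094 in the same contrasts. *Dab2* had the smallest fall in KO (-0.43 ± 0.033) of the 4, and fell further in KO_PAPC versus KO (log2 fold change -2.52 ± 0.049).

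*Lrp2* (ENSMUSG00000027070, chromosome 2, 69424340 to 69586065) parted from its partners. It had 10649, 10483 and 10371 reads in the WT libraries, 5321, 5242 and 5339 in the KO libraries and 4764, 4469 and 4485 in the KO_PAPC libraries. It fell in KO versus WT, with a log2 fold change of -1.01 ± 0.023 (adjusted p = 2.27e-28). Between KO_PAPC and KO the log2 fold change was -0.0045 ± 0.029 (adjusted p = 0.889), although the raw counts of the 2 groups did not overlap. With library totals as size factors it was -0.17 and called (adjusted p = 1.68e-06), and it was above 0 in 4 other settings, none of them called. Relative to the median of the tested genes on chromosome 2 it was 0.15, with no test. Scaling by library totals moved the median of all genes to -0.18 in both contrasts with KO_PAPC. Per kilobase of exon, *Cubn* stood at a ratio to *Lrp2* of 0.709 ± 0.00316 in WT, 0.594 ± 0.0116 in KO and 0.0593 ± 0.00312 in KO_PAPC EBs. The 3 KO_PAPC libraries lay between 0.0561 and 0.0623, and the 3 KO libraries between 0.583 and 0.606. The ratio of *Amn* to *Cubn* was 0.902 ± 0.0600 in WT, 0.962 ± 0.0333 in KO and 2.90 ± 0.153 in KO_PAPC EBs, so that *Amn* was the less reduced of the 2 in KO_PAPC.

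**Figure D2:**
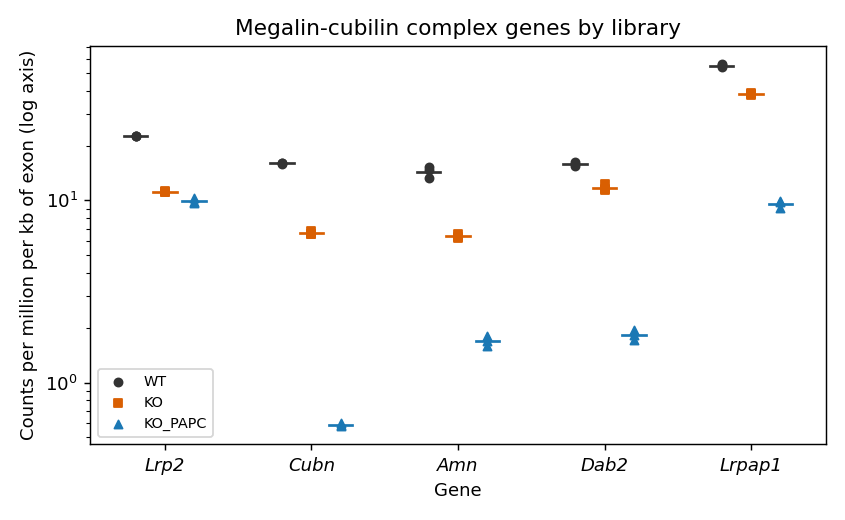
CPM per kilobase of exon, on a log axis, of the megalin-cubilin genes and of *Lrpap1*, the megalin chaperone. Each point is a library and each line the mean of 3. *Lrp2* lies at about the same level in KO and KO_PAPC, while *Cubn*, *Amn*, *Dab2* and *Lrpap1* lie lower in KO_PAPC than in KO.

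Of 25 further genes of receptor-mediated uptake (other lipoprotein receptors, clathrin and its adaptor, Rab proteins, lysosomal proteins), 7 were higher and 13 lower in KO than in WT EBs, with a median log2 fold change of -0.13. In KO_PAPC versus KO, 10 were higher and 15 lower (median -0.12). Over all tested genes 36.8% were called higher and 37.1% lower in KO versus WT, and 39.6% and 42.2% in KO_PAPC versus KO. *Lrpap1*, which encodes the chaperone that keeps megalin from binding ligands too early, fell in both contrasts, with log2 fold changes of -0.52 ± 0.026 and -1.84 ± 0.036. Its ratio to *Lrp2* per kilobase was 2.44 ± 0.0508 in WT, 3.45 ± 0.0303 in KO and 0.971 ± 0.0773 in KO_PAPC EBs. *Vldlr*, a lipoprotein receptor, had 1290, 1253 and 1293 reads in the WT libraries, 142, 133 and 118 in the KO libraries and 632, 613 and 668 in the KO_PAPC libraries. It fell in KO (log2 fold change -3.31 ± 0.064) and rose in KO_PAPC versus KO (2.49 ± 0.076), and did not reach the WT level (KO_PAPC versus WT -0.83 ± 0.047). *Tfrc*, the receptor of transferrin, also fell in KO (-0.68 ± 0.024) and rose in KO_PAPC versus KO (1.31 ± 0.028), to above WT (0.63 ± 0.032). *Ctsl*, a lysosomal protease, fell in KO (log2 fold change -1.28 ± 0.021) and rose in KO_PAPC versus KO (0.97 ± 0.024), though 26.9% of its exon sequence overlaps other annotated genes.

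Most secreted and transport proteins were higher in KO than in WT, as *Foxa1* and *Hnf4a* were, while the other 6 factors and *Apoe* were lower. A difference between the roles was not tested. Of 10 tested, 7 were higher in KO than in WT EBs and 1 was lower, against 36.8% and 37.1% of all tested genes. The other 2 were not called, and the median log2 fold change of the 10 was 0.47. Alpha-fetoprotein is the major serum protein of the yolk sac and fetal liver. *Afp* (ENSMUSG00000054932, chromosome 5, 90490737 to 90508907) had 131, 127 and 140 reads in the WT libraries, 316, 317 and 308 in the KO libraries and 38, 30 and 27 in the KO_PAPC libraries. All KO libraries were above all WT libraries, and all KO_PAPC libraries were below both. On the log2 scale *Afp* rose by 1.21 ± 0.084 from WT to KO (adjusted p = 7.69e-15). It changed by -3.09 ± 0.12 from KO to KO_PAPC, and KO_PAPC differed from WT by -1.89 ± 0.15. Its promoter is the first of the 4 shown above.

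Apolipoprotein B is the structural protein around which large lipoprotein particles are built. *Apob* (ENSMUSG00000020609, chromosome 12, 7977648 to 8016835) had 407, 413 and 400 reads in the WT libraries, 835, 831 and 878 in the KO libraries and 98, 83 and 95 in the KO_PAPC libraries. It rose in KO with a log2 fold change of 1.03 ± 0.053 (adjusted p = 1.80e-18) and fell in KO_PAPC versus KO with one of -2.99 ± 0.076 (adjusted p = 4.67e-29). The carriers of retinol and thyroid hormone, which circulate as a complex, took the same order. *Rbp4* was at 13.9 ± 0.191 CPM in WT EBs, 22.0 ± 1.35 in KO EBs and 2.52 ± 0.305 in KO_PAPC EBs. *Ttr* was at 9.24 ± 0.656 CPM in WT EBs, 13.1 ± 0.751 in KO EBs and 2.11 ± 0.181 in KO_PAPC EBs. Their rises in KO were 0.66 ± 0.059 and 0.50 ± 0.073, and their falls in KO_PAPC versus KO -2.96 ± 0.092 and -2.47 ± 0.10.

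The apolipoproteins of high-density lipoprotein were low. *Apoa4* had 30, 21 and 35 reads in the WT libraries, 57, 67 and 57 in the KO libraries and 1, 3 and 4 in the KO_PAPC libraries. It was called higher in KO (1.04 ± 0.19) and lower in KO_PAPC versus KO. The latter rests on 8 reads over the KO_PAPC libraries (exact 95% Poisson interval 3.45 to 15.8, counting error only), against 181 in KO, a level 22.0 times higher (interval 10.9 to 51.7). Antisense genes overlap 69.8% of the *Apoa4* exons, and reads shared by overlapping genes were not counted, so these counts are uncertain. The antisense genes *Gm10680* and *Gm47528* held 0 or 1 read per library, which bears only on their parts outside the overlap. *Apoa1* had 62, 67 and 70 reads in the WT libraries, 82, 87 and 87 in the KO libraries and 14, 25 and 12 in the KO_PAPC libraries. Its rise in KO (0.33 ± 0.13, adjusted p = 0.0259) was not called in DESeq2 (adjusted p = 0.187), without a filter beyond 1 count (adjusted p = 0.0605) or without KO replicate 2 (adjusted p = 0.0667), WT replicate 1 (adjusted p = 0.110) or WT replicate 2 (adjusted p = 0.0508). Its fall in KO_PAPC versus KO was -2.11 ± 0.21 (adjusted p = 1.42e-11).

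*Apoa2* held 8 to 29 reads in any library. KO and WT were not distinguished (0.43 ± 0.28, adjusted p = 0.155), except without KO replicate 1 (0.66, adjusted p = 0.0376). It fell in KO_PAPC versus KO, with a log2 fold change of -1.19 ± 0.33 (adjusted p = 0.00126). Its call in KO_PAPC versus WT (adjusted p = 0.0379) did not hold in DESeq2 (adjusted p = 0.257), in a joint fit of the 3 groups, without the filter, or without KO_PAPC replicate 1, KO_PAPC replicate 3, WT replicate 1 or WT replicate 3 (adjusted p from 0.0528 to 0.101). *Trf*, the iron carrier transferrin, had 181, 189 and 185 reads in the WT libraries, 217, 200 and 270 in the KO libraries and 87, 90 and 98 in the KO_PAPC libraries. Its rise in KO (0.28 ± 0.093) was not called in DESeq2 (adjusted p = 0.0791) or without KO replicate 3 (0.16, adjusted p = 0.142), while its fall in KO_PAPC versus KO was -1.11 ± 0.11. Of the *Trf* exon sequence, 63.5% overlaps the annotated gene *Gm20425*, so its counts are uncertain as well.

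*Apoe*, which many cell types express, was by far the most abundant of the list and the exception among the secreted proteins. It had 28663, 30526 and 30133 reads in the WT libraries, 26269, 24709 and 24345 in the KO libraries and 18457, 19929 and 19298 in the KO_PAPC libraries. It fell in KO versus WT (-0.27 ± 0.027, adjusted p = 3.44e-11) and a little further in KO_PAPC versus KO (-0.18 ± 0.029, adjusted p = 9.72e-07). Relative to the median of the tested genes on chromosome 7, the latter was -0.091. *Apom*, the carrier of sphingosine 1-phosphate, had 38, 52 and 50 reads in the WT libraries, 31, 58 and 52 in the KO libraries and 31, 34 and 27 in the KO_PAPC libraries and was not called in any contrast, with log2 fold changes of -0.018 ± 0.20, -0.41 ± 0.22 and -0.43 ± 0.20. The fall of *Apom* in KO_PAPC versus KO was called with library totals as size factors (adjusted p = 0.0155) and without KO replicate 1 (-0.64, adjusted p = 0.00725). Against WT it was called with library totals as size factors (adjusted p = 0.00973), without KO_PAPC replicate 2 (adjusted p = 0.0490) and without WT replicate 1 (adjusted p = 0.0191).

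Of 14 further genes of lipoprotein assembly and transport, 11 were tested. In KO versus WT, 5 were higher and 6 lower, against 36.8% and 37.1% of all tested genes. In KO_PAPC versus KO, 3 were higher and 7 lower, against 39.6% and 42.2%. *Mttp*, which encodes the protein that loads lipid onto apolipoprotein B, fell in both contrasts (-0.53 ± 0.049 and -1.24 ± 0.061), and so did not share the rise of *Apob* in KO. The cholesterol exporter *Abcg1* rose in KO (1.09 ± 0.066) and fell in KO_PAPC versus KO (-1.83 ± 0.081). *Apoc1* and *Abca1* fell in KO_PAPC versus KO, with log2 fold changes of -1.61 ± 0.072 and -1.80 ± 0.10. Their rises in KO, 0.17 ± 0.058 and 0.17 ± 0.070, were called by edgeR (adjusted p = 0.00881 and 0.0285) but not by DESeq2 (adjusted p = 0.0692 and 0.183). *Apoc3*, *Apoh* and *Apoa5*, at 0 to 3 reads per library, were not tested.

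Among the 10 surface, signalling and matrix genes, 8 were lower in KO than in WT, 1 was higher and 1 was not called. The shares of all tested genes were 37.1% called lower and 36.8% called higher. PDGFRA is an early receptor of primitive endoderm. *Pdgfra* (ENSMUSG00000029231, chromosome 5, 75152292 to 75198215) had 1015, 962 and 988 reads in the WT libraries, 395, 341 and 403 in the KO libraries and 73, 63 and 58 in the KO_PAPC libraries. The groups did not overlap, and its log2 fold changes, -1.41 ± 0.055 and -2.34 ± 0.10, were close to those of *Gata6*. *Srgn*, the core protein of a secretory proteoglycan, fell with log2 fold changes of -1.18 ± 0.033 and -2.62 ± 0.058. *Aqp8*, a water channel, had 938, 846 and 887 reads in the WT libraries, 293, 300 and 341 in the KO libraries and 30, 21 and 38 in the KO_PAPC libraries. It fell to 34.3% of WT in KO and to 3.36% in KO_PAPC EBs, the lowest share among the 32 detected genes. *Ihh*, a hedgehog ligand made by visceral endoderm, had 244, 282 and 259 reads in the WT libraries, 81, 87 and 90 in the KO libraries and 45, 38 and 38 in the KO_PAPC libraries. Most of its fall was in KO versus WT (-1.63 ± 0.10), with a smaller step in KO_PAPC versus KO (-0.88 ± 0.16).

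*Pth1r*, the receptor for parathyroid hormone-related protein, whose signal acts in the formation of parietal endoderm, had 978, 1061 and 1087 reads in the WT libraries, 405, 463 and 433 in the KO libraries and 200, 234 and 219 in the KO_PAPC libraries. It fell from WT to KO (log2 fold change -1.29 ± 0.058) and from KO to KO_PAPC (-0.79 ± 0.078). *Cldn6*, a tight-junction protein of early epithelia, fell with log2 fold changes of -0.74 ± 0.039 and -0.34 ± 0.048. *Plat*, tissue plasminogen activator, a product of parietal endoderm, fell in KO (log2 fold change -0.59 ± 0.10), and its step in KO_PAPC versus KO (-0.38 ± 0.13, adjusted p = 0.00773) was not called in DESeq2 (adjusted p = 0.0971) or without KO replicate 1 (adjusted p = 0.0583). The median log2 fold changes of the tested genes on chromosomes 8 and 17, where *Plat* and *Cldn6* lie, were -0.23 and -0.24 in KO versus WT, and 0.43 and 0.32 in KO_PAPC versus KO. Relative to these medians *Plat* changed by -0.35 and -0.82, and *Cldn6* by -0.50 and -0.66. The part of these chromosome-wide shifts in the results was not tested.

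*Thbd* (ENSMUSG00000074743, chromosome 2, 148404466 to 148408188), which encodes thrombomodulin, a surface anticoagulant of endothelium and parietal endoderm, was the only gene of this role called higher in KO. It had 26, 31 and 16 reads in the WT libraries, 102, 108 and 107 in the KO libraries and 3, 6 and 6 in the KO_PAPC libraries. The rise in KO, 2.08 ± 0.17 (adjusted p = 8.75e-13), was the largest of the 33 genes. In KO_PAPC it rested on 15 reads over 3 libraries (exact 95% Poisson interval 8.40 to 24.7, counting error only), and the KO level was 20.5 times higher (interval 12.3 to 37.1). *Thbd* thus followed the order of the secreted proteins and not that of *Plat* and *Pth1r*.

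*Fst* and *Cxcr4* were the only genes of the list higher in KO_PAPC than in WT. Follistatin, the product of *Fst*, binds and blocks activin. *Fst* (ENSMUSG00000021765, chromosome 13, 114452290 to 114458951) had 808, 799 and 701 reads in the WT libraries, 115, 122 and 134 in the KO libraries and 1007, 941 and 943 in the KO_PAPC libraries. KO libraries were far below both other groups, with a log2 fold change of -2.66 ± 0.076 against WT (adjusted p = 1.10e-25), and KO_PAPC libraries rose over KO by 3.17 ± 0.070 (adjusted p = 4.09e-31). KO_PAPC lay above WT by 0.50 ± 0.052 (adjusted p = 5.44e-09), or 0.31 relative to the median of chromosome 13. *Cxcr4*, a chemokine receptor used as a marker of definitive endoderm, had 57, 89 and 74 reads in the WT libraries, 91, 83 and 92 in the KO libraries and 78, 96 and 97 in the KO_PAPC libraries. Its libraries overlapped between all groups, and only KO_PAPC versus WT was called (0.48 ± 0.15, adjusted p = 0.00742). That call did not hold without WT replicate 1 (0.32, adjusted p = 0.0685) or with library totals as size factors (adjusted p = 0.0705). *Cxcr4* was also called higher in KO than in WT without WT replicate 2 (0.41, adjusted p = 0.0213), and higher in KO_PAPC than in KO without KO_PAPC replicate 1 (0.34, adjusted p = 0.0216).

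**Figure D3:**
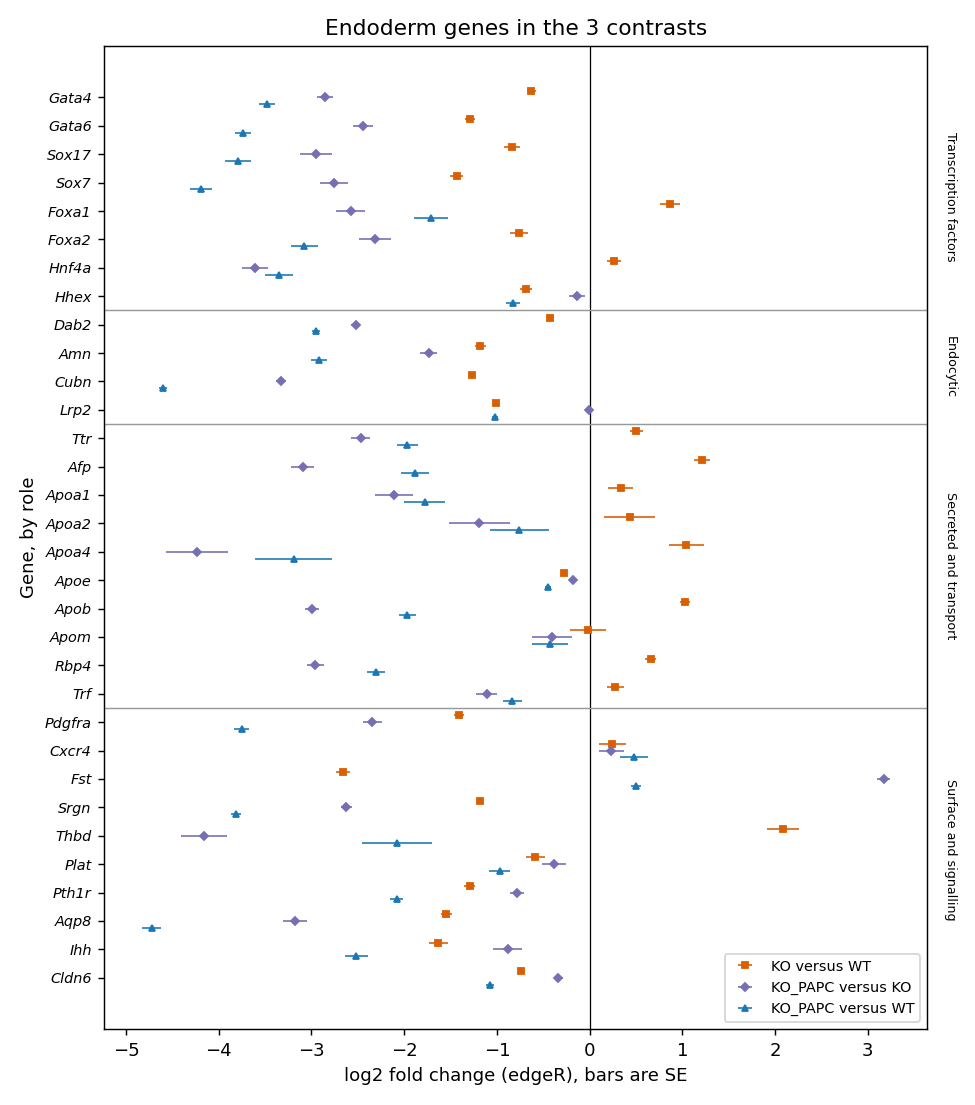
Log2 fold changes of the 32 tested endoderm genes from edgeR in KO versus WT (squares), KO_PAPC versus KO (diamonds) and KO_PAPC versus WT (triangles), with bars of 1 SE. The secreted proteins other than *Apoe* and *Apom* lie right of 0 in KO versus WT and left of 0 in the other contrasts. *Fst* alone lies far right of 0 in KO_PAPC versus KO.

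To compare the roles within each library, the CPM of their genes were summed. The transcription factors summed to 128 ± 3.01 CPM in WT EBs, 77.0 ± 0.820 in KO EBs and 17.5 ± 0.450 in KO_PAPC EBs. The endocytic genes summed to 757 ± 6.23 CPM in WT EBs, 383 ± 3.42 in KO EBs and 191 ± 5.97 in KO_PAPC EBs, and without *Lrp2* to 381, 197 and 25.3 CPM. The secreted proteins without *Apoe* summed to 54.8 ± 1.28 CPM in WT EBs, 91.4 ± 0.0968 in KO EBs and 14.5 ± 0.328 in KO_PAPC EBs. The sum was thus 167% of WT in KO, while that of the factors was 60.3%. With *Apoe* the secreted proteins summed to 1121 ± 49.3 CPM in WT EBs, 973 ± 38.9 in KO EBs and 709.6 ± 31.8 in KO_PAPC EBs, so that 1 abundant gene turns the direction of the sum in KO. The surface and signalling genes summed to 344 ± 0.778 CPM in WT EBs, 153 ± 1.85 in KO EBs and 90.6 ± 2.75 in KO_PAPC EBs. The libraries of the 3 groups did not overlap for any of these sums. With 3 libraries against 3, an exact permutation test cannot go below a p of 0.1, and the sums were not tested.

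**Figure D4:**
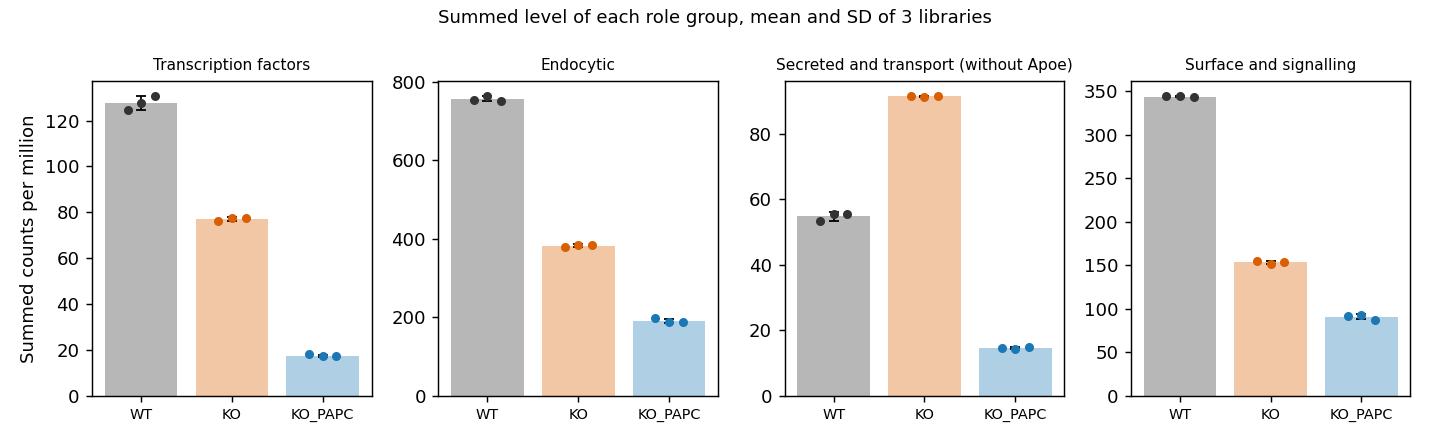
Summed CPM of each role group, with bars for the mean and error bars for the SD of 3 libraries, and 1 point per library. Each panel has its own axis from 0. The sums of the factors, endocytic genes and surface genes step down from WT to KO to KO_PAPC, and that of the secreted proteins without *Apoe* is highest in KO.

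The balance between secreted proteins and factors was taken per kilobase of exon. Over all genes of both roles the ratio of the sums was 17.7 ± 0.517 in WT, 24.9 ± 1.32 in KO and 85.9 ± 5.24 in KO_PAPC EBs, and most of its numerator was *Apoe*. *Apoe* and *Hhex* were then left out because they did not follow the other genes of their roles, a choice made after their values were seen that itself shapes the ratio. As a description of the genes that were left, it was 1.06 ± 0.0178 in WT, 2.61 ± 0.0352 in KO and 3.58 ± 0.285 in KO_PAPC EBs. The 3 libraries of each group lay apart from those of the others, at 1.05 to 1.08 in WT, 2.58 to 2.65 in KO and 3.28 to 3.84 in KO_PAPC. *Afp* stood to *Gata6* at 0.307 ± 0.0209 in WT, 1.74 ± 0.0919 in KO and 1.14 ± 0.368 in KO_PAPC EBs, and *Hnf4a* to *Gata4* at 0.210 ± 0.0157 in WT, 0.389 ± 0.0150 in KO and 0.235 ± 0.0590 in KO_PAPC EBs. For *Hnf4a* and *Gata4* the KO_PAPC libraries spanned the WT range. These ratios say which genes were reduced less within a library, and levels of both were low in KO_PAPC.

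Of 36 further genes of extraembryonic endoderm (regulators, basement membrane, keratins, transporters), 34 were tested. In KO versus WT 5 were higher and 25 lower, with a median log2 fold change of -0.52. In KO_PAPC versus KO 6 were higher and 26 lower (median -0.94), and in KO_PAPC versus WT 4 were higher and 28 lower (median -1.36). Over all tested genes the shares called higher and lower were 36.8% and 37.1%, 39.6% and 42.2%, and 34.2% and 36.4% in these 3 contrasts. *Lama1*, a laminin chain of basement membrane, fell in both steps (-0.74 ± 0.031 and -2.73 ± 0.045), as did *Col4a1* (-1.18 ± 0.026 and -2.16 ± 0.033), a collagen of the same structure. *Lefty1*, a Nodal antagonist that is also expressed in the epiblast lineage, fell in KO (-1.55 ± 0.029) and rose in KO_PAPC versus KO (2.00 ± 0.030). *Emb*, which encodes a cell adhesion protein, had the same order, with -1.61 ± 0.027 and 2.07 ± 0.028. *Lefty1* and *Emb* therefore went with *Fst* in direction and not with *Gata6*.

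The FGF route that divides primitive endoderm from epiblast was read from 17 genes (ligands, receptors, adaptors, targets and *Nanog*). In KO versus WT 10 were higher and 5 lower (median 0.28), against 36.8% and 37.1% of all tested genes. In KO_PAPC versus KO 6 were higher and 11 lower (median -0.17), against 39.6% and 42.2%. The receptors differed. *Fgfr1* fell in KO (log2 fold change -0.87 ± 0.026) and rose in KO_PAPC versus KO (1.24 ± 0.029). *Fgfr3* rose in KO (0.64 ± 0.11) and fell in KO_PAPC versus KO (-1.69 ± 0.13). The 6 targets that FGF signalling induces did not move together either. In KO the feedback inhibitors *Spry2* and *Dusp6* were lower (-0.43 ± 0.028 and -0.89 ± 0.028), and *Spry4* and *Dusp4*, of the same families, were higher (0.37 ± 0.029 and 1.09 ± 0.033). The ETS factors *Etv4* and *Etv5* were higher as well (0.90 ± 0.037 and 0.50 ± 0.023). In KO_PAPC versus KO, *Spry2*, *Dusp6* and *Spry4* rose (1.31 ± 0.028, 1.45 ± 0.030 and 0.60 ± 0.028), and *Dusp4*, *Etv4* and *Etv5* fell (-0.36 ± 0.032, -1.04 ± 0.040 and -0.37 ± 0.025). *Nanog* had 11113, 10615 and 10504 reads in the WT libraries, 21838, 22008 and 22702 in the KO libraries and 8179, 7829 and 7818 in the KO_PAPC libraries. It rose in KO (1.02 ± 0.021) and fell in KO_PAPC versus KO (-1.27 ± 0.025), to slightly below WT (-0.26 ± 0.028). *Gata6* was lowest in KO_PAPC, where *Nanog* was lowest too.

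Marker lists of other cell types moved between the groups, and their part in the results above was not tested. Over all tested genes 36.8% were called higher and 37.1% lower in KO than in WT, and 39.6% and 42.2% in KO_PAPC than in KO. Of 10 pluripotency genes, 9 were higher in KO than in WT and 9 were lower in KO_PAPC than in KO, and they summed to 2670.1 to 2724 CPM in WT, 4473 to 4506 CPM in KO and 2310.1 to 2364 CPM in KO_PAPC libraries. Of 8 tested trophoblast genes, 4 were higher in KO, among them *Tfap2c* (2.45 ± 0.028) and *Hand1* (2.54 ± 0.17), and 6 were lower in KO_PAPC than in KO. *Tead4* was lower in KO (-0.41 ± 0.087), and 3 genes were not called. Among these 3, *Cdx2* rose in KO_PAPC versus KO (1.89 ± 0.24). The trophoblast list summed to 74.8 to 75.5 CPM in WT, 318 to 325 CPM in KO and 37.7 to 40.6 CPM in KO_PAPC libraries, most of it *Tfap2c* in KO. Without *Tfap2c* the mean sums were 21.2, 26.8 and 11.3 CPM in WT, KO and KO_PAPC. *Tpbpa* and *Prl3d1*, which define later trophoblast, were at 0 in every library. Of 11 genes of liver and gut, 2 were tested. *Vil1* was higher in KO (0.64 ± 0.14), and the list summed to 3.70 to 3.85 CPM in WT, 4.81 to 5.88 CPM in KO and 3.18 to 3.49 CPM in KO_PAPC libraries, with *Serpina1a* and *Cyp3a11* at 0.

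Mesoderm and neuroectoderm genes had another order. The 10 mesoderm genes summed to 15.1 to 18.0 CPM in WT, 10.6 to 11.7 CPM in KO and 41.2 to 42.5 CPM in KO_PAPC libraries, with *T* at 1.91 ± 0.214 CPM in WT EBs, 0.292 ± 0.109 in KO EBs and 15.5 ± 1.15 in KO_PAPC EBs, and *Kdr*, a receptor of blood and vessel progenitors, moved the opposite way (1.73 ± 0.13 in KO and -3.45 ± 0.18 in KO_PAPC versus KO). The 9 neuroectoderm genes summed to 142 to 147 CPM in WT, 52.4 to 55.5 CPM in KO and 230.0 to 233 CPM in KO_PAPC libraries. Of them, 4 of 6 tested were lower in KO than in WT, against 37.1% of all tested genes. In KO_PAPC versus KO, 6 of 7 tested were higher, against 39.6%. Of 8 fibroblast genes, which feeder cells would express, 4 or 5 were tested per contrast, and the list summed to 15.9 to 16.3 CPM in WT, 21.9 to 24.2 CPM in KO and 16.6 to 19.2 CPM in KO_PAPC libraries. *Dcn* and *Lum* held 0 to 5 reads in any library.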

How the data were processed

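RNA from EBs of 3 groups, with 3 libraries each, was sequenced by the authors in 51-cycle single-end runs of unstranded TruSeq RNA v2 libraries. The deposited values are whole-number read counts per Ensembl gene, not normalized. The submitters' processing notes name bcl2fastq 2.20.0.422, STAR 2.7.2b, featureCounts 1.6.5 and GRCm38 for all samples. The study's methods describe an older pipeline for its comparison of WT with KO. Multi-mapping reads and reads shared by overlapping genes were left out of the counts, and reads of antisense genes cannot be told apart. The number of unused columns of per-sample values was 0. Symbols, positions and exon lengths came from GENCODE M21 (GRCm38), and 241 IDs had no match. Replicate pairs all differed beyond sampling noise (chi-square test).

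Groups and replicate numbers came from the titles. Each contrast was fitted on its own 6 libraries with edgeR 4.0.16 (TMM, filterByExpr, glmQLFTest, Benjamini-Hochberg over all tested genes) in R 4.3.3. SE were derived from the F statistic. The test was tested on simulated data before use. Alternatives were DESeq2 1.42.0, RLE size factors, library totals, no filter beyond 1 count, a joint fit, the replicate number as a block, each library left out and a tested minimum fold change of 2. Values relative to chromosome medians and role sums without single libraries were added after the data had been seen. The members and all lists were chosen with earlier results of these data known, so no list was tested as a set. From each further list, at most 4 genes of at least 1 CPM in a group were named, those with the smallest adjusted p, and others named were chosen after their values were seen. Promoters came from RefSeq tables, and proteins were not analysed here.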

Additional observations from a re-analysis of the deposited data

How the results depend on the processing

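The counts of endoderm genes called stayed within 1.5 times of those above under DESeq2, RLE size factors, no filter beyond 1 count, the joint fit and the replicate block (10 higher and 19 lower in KO than in WT, 1 and 27 in KO_PAPC versus KO, 2 and 29 in KO_PAPC versus WT under the block). Correlations of the deviations of same-numbered libraries ran from -0.135 to 0.207. Libraries of different numbers were not compared, so these values cannot decide whether replicate numbers pair the samples. At a tested minimum fold change of 2, which calls fewer genes by construction, 2 genes were higher and 10 lower in KO than in WT, and 0 were higher in KO_PAPC than in WT. With library totals as size factors 1 gene was higher in KO_PAPC versus WT. Leaving out 1 library gave 9 to 11 higher and 19 lower in KO than in WT, 1 to 2 and 27 to 28 in KO_PAPC versus KO, and 1 to 2 and 28 to 30 in KO_PAPC versus WT. The number higher in KO_PAPC versus KO was 2 without KO_PAPC replicate 1, and that in KO_PAPC versus WT was 1 without WT replicate 1.

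Of the alternatives to the log2 fold changes, counts and sums of the endoderm genes that were planned, 1178 left the call as it was, 52 ended a call, 11 made one and 7 turned a direction, and no called gene turned. *Lrp2* in KO_PAPC versus KO was at 0.00072 in DESeq2, 0.019 without the filter, and from -0.021 to 0.024 with 1 library left out. *Apom* in KO versus WT ran from -0.21 to 0.21 with 1 library left out. Outside the list, *Cdx1* in KO versus WT ran from -0.045 to 0.27 likewise, and *Pdgfrb* in KO_PAPC versus KO was at -0.020 with library totals. The cause was not tested.

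With TMM-scaled library sizes, in the order WT, KO and KO_PAPC, the sums were 123, 74.0 and 18.9 CPM for the factors, 727, 368 and 206 for the endocytic genes, 330.2, 148 and 98.1 for the surface genes and, in KO_PAPC, 768 for the secreted proteins. Without the most abundant gene they were 95.2, 55.9 and 14.9 (without *Gata4*), 381, 197 and 25.3 (without *Lrp2*), 54.8, 91.4 and 14.5 (without *Apoe*) and 219.6, 98.7 and 82.7 (without *Srgn*).

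Depth limits *Apoa4*, *Thbd* and *Apoa2* most, at 1 to 10 reads per library in KO_PAPC, where 1 read is a large part of the value. With 3 libraries a group, p-values measure the spread between these EB pools only. WT with PA/PC was not analysed here, so an effect of PA/PC that depends on the knockout cannot be told from one that does not.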
